A study of Mus musculus with 4 samples.

Results

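Autophagy machinery genes are described here across control and Parp12 knockdown mouse oocytes. They were chosen by symbol: all genes named Atg with a number, Map1lc3a and Map1lc3b, the Gabarap genes, Ulk1 to Ulk4, Wipi1 and Wipi2, and Becn1, Sqstm1, Rb1cc1, Pik3c3, Pik3r4 and Wdr45. The rule found 35 genes among the 55453 of the count table, all annotated as protein coding. Messenger RNA was sequenced in 4 libraries of oocytes at the germinal vesicle stage, the prophase arrest that precedes maturation. The 2 control libraries carry the genotype label WT, and the other 2 carry the label Parp12 knockdown. Parp12 encodes an enzyme of the PARP family, which attaches ADP-ribose to its targets. In both groups the oocytes were taken directly from the ovary. Strain, age, the knockdown method and the number of oocytes in a library were not given in the sources used here. Nothing in the labels says that the 2 libraries of a group came from separate animals, so the p-values reflect the spread of these libraries alone, which may be technical.

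Autophagy encloses cytoplasm in a double membrane, the autophagosome, and delivers it to the lysosome. The ULK1 kinase complex starts the process, a class III PI3-kinase marks the membrane with a lipid, ATG9 and ATG2 supply lipid, and a pair of ubiquitin-like systems attaches ATG8 proteins (LC3 and GABARAP) to the growing membrane. In the mouse, autophagy is known to be needed in the early embryo, where it relies on the supply made in the oocyte, and genes of the pathway are known to act in keeping germ cells alive in the newborn ovary.

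The libraries held between 35805122 and 45230773 counts. Parp12 was counted 14279 and 9419 times in the controls, against 32 and 86 times after knockdown, so the targeted gene followed the labels. All 12 oocyte markers had counts and summed to 23202 and 24156 CPM (counts per 1000000 counts of the library) in the controls, against 24804 and 25291 CPM in the knockdowns. Granulosa and cumulus markers summed to 167 and 155 CPM in the controls, against 135 and 154 CPM in the knockdowns, and 6 of 15, Amh, Amhr2, Foxl2, Inhba, Fst and Krt18, had 0 counts in all libraries. Theca and stroma markers summed to 3.29 and 6.45 CPM in control oocytes and 2.58 and 3.35 CPM in knockdown oocytes, with 2 of 10, Col1a2 and Col3a1, at 0 counts everywhere. Blood and immune cell markers summed to 100.3 and 102.5 CPM in control oocytes and 101.6 and 94.3 CPM in knockdown oocytes, with 2 of 8, Adgre1 and Lyz2, at 0 counts everywhere and at least 91.6 CPM from Pecam1 alone. Counts in at least 1 library were seen for 9 granulosa and cumulus markers, 8 theca and stroma markers and 6 blood and immune cell markers. The part of such cells in the values below was not tested.

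The oocytes held counts in all 4 libraries for 30 of the 35 autophagy genes, and by edgeR no member changed past the threshold in the knockdowns. Together the 35 genes took 2915 and 2999 CPM in the control libraries and 3001 and 3064 CPM after knockdown. Of the 35, 33 passed the filter on low counts and were tested with edgeR's quasi-likelihood test. At an adjusted p under 0.05 (Benjamini-Hochberg over all 15868 tested genes), 0 members were called, where 0.0063% of all tested genes were called, namely Parp12 alone. At an unadjusted p under 0.05, edgeR listed 2 members, Atg4c and Atg5, both higher, a share of 6.06% where all tested genes had 5.51% (2.94% higher and 2.57% lower). That count was 0 without control replicate 2 and 0 without knockdown replicate 1, 1 with the replicate number as a block, and 3 with no scaling factors, with no filter or with edgeR's legacy fit. Without control replicate 1 it was 2 higher and 1 lower, and without knockdown replicate 2 it was 1 higher and 1 lower. limma-voom called 0 members, where it called 0% of all genes. At the unadjusted limit it listed 2, Atg5 and Sqstm1, both higher, or 6.06%. Of all genes it listed 4.71% (2.36% higher and 2.34% lower). DESeq2 called 1 member, Atg4c, higher, where it called 1.43% of all genes with counts (0.819% higher and 0.609% lower). At the unadjusted limit DESeq2 listed 4 members higher (Atg4c, Atg5, Sqstm1 and Map1lc3a) and 1 lower (Wipi1). That is 14.3% of the 35, beside 10.2% of all genes (5.3% higher and 4.87% lower). The median log2 fold change of the tested members was 0.05, with 18 above 0 and 15 below, beside a median of 0.00 over all tested genes. Without knockdown replicate 2 the members' median was -0.06.

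For 11 of the 33 tested members the CPM of the groups did not overlap, with the knockdowns higher for 7 and lower for 4. Over all tested genes this was so for 34.9%, 18% higher and 16.8% lower, and over the members for 33.3%, a share near that background. With 2 libraries a group there are 6 arrangements, and the smallest p an exact permutation test (two-sided) could give a gene is 0.333, so none is given. The libraries are bulk samples of oocytes, in which fewer cells with a transcript and less of it per cell cannot be told apart.

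**Figure D1:**
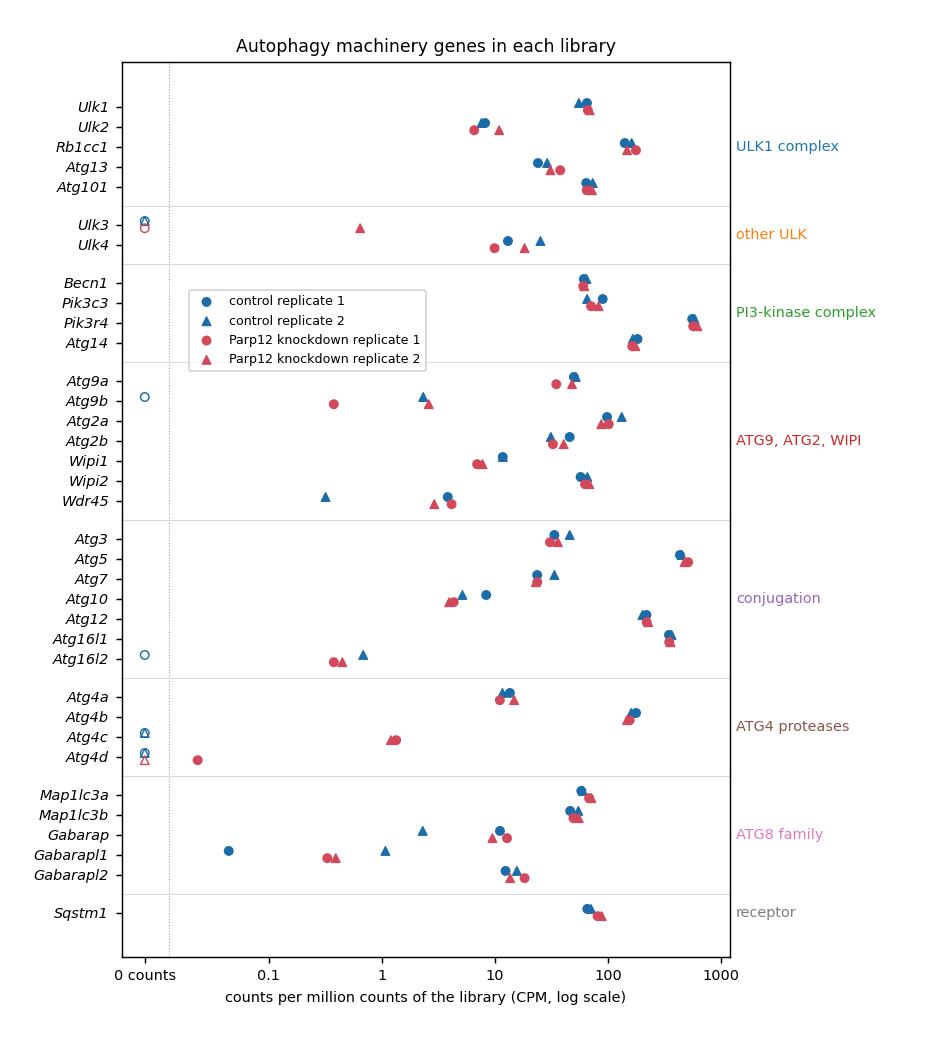
Level of each of the 35 genes in each library, in CPM on a log axis, grouped by role. Blue marks are controls and red marks knockdowns, circles are replicate 1 and triangles replicate 2, and open marks left of the dotted line are libraries with 0 counts. For most genes above 10 CPM the 4 marks nearly coincide, and the wide gaps lie among the rarer genes such as Wdr45, Atg9b and Gabarapl1.

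The genes spanned a wide range of levels. To compare genes, counts were divided by the summed exon length as well (RPKM, counts per kilobase per 1000000 counts). By this measure Atg5 led in the controls with 184 and 190.0 RPKM, above 98.7% of all tested genes. Atg5 encodes the acceptor of ATG12 in the conjugate that drives ATG8 attachment. Pik3r4, the scaffold subunit of the PI3-kinase (also known as VPS15), followed with 57.4 and 60.3 RPKM, and Map1lc3a, an LC3 protein, with 49.1 and 50.7 RPKM. In these 3 places the control values of neighbours in the order did not overlap. They did overlap for 24 of the 34 neighbouring pairs, so most of the order below the top is not resolved by the controls. The order at the top also rests on the summed exon length, 2352 nucleotides for Atg5, 9660 for Pik3r4 and 1181 for Map1lc3a. By CPM alone, given below, Pik3r4 lay above Atg5 and Atg16l1 above Map1lc3a in both controls. In the knockdowns the first 7 places were held by the same genes in the same order, Atg5, Pik3r4, Map1lc3a, Atg101, Atg14, Atg16l1 and Atg12. Of the 35 genes, 24 lay above the median control RPKM of all tested genes. At the other end, Ulk3, Atg4c and Atg4d had 0 counts in both controls, and Atg16l2 reached 0 and 0.0808 RPKM.

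The ULK1 kinase complex was present in all 4 libraries and none of its 5 genes passed the test. Ulk1, the kinase itself, had 65.1 and 55.3 CPM in control oocytes and 66.4 and 68.9 CPM in knockdown oocytes. Both knockdowns were slightly above both controls, by less than the distance between the 2 controls. Rb1cc1, which encodes the scaffold FIP200, had 141 and 162 CPM in the controls, against 177 and 147 CPM in the knockdowns, with overlapping groups. Atg13, which links the kinase to FIP200, had 24.0 and 28.9 CPM in the control libraries and 37.8 and 30.9 CPM after knockdown. Its groups did not overlap, and its log2 fold change of 0.39 (SE 0.23) had an adjusted p of 0.843 by edgeR. Atg101, the partner that stabilises ATG13, had 64.1 and 73.2 CPM in control oocytes and 64.8 and 72.0 CPM in knockdown oocytes, practically the same pair of values. Ulk2, the closest relative of Ulk1, was the rarest gene of the complex per length, with 8.18 and 7.60 CPM in the controls, against 6.55 and 10.9 CPM in the knockdowns.

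The remaining kinases with the ULK name are not core members of this complex. Ulk4, classed as a pseudokinase, had 13.0 and 25.2 CPM in the control libraries and 9.91 and 18.3 CPM after knockdown. Replicate 2 was the higher library in each group, and the groups overlapped. Ulk4 shares 8.93% of its exonic bases with Ctnnb1 on the other strand. Ctnnb1 was counted between 11789 and 15242 times, so the counts of Ulk4 are uncertain if strand was not used. Ulk3 had 0 counts in 3 libraries and 23 counts in knockdown replicate 2, and was not tested. A count of 0 allows up to 0.0663 to 0.0838 CPM in these libraries, taking 3 counts as the limit, which covers counting error only.

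The class III PI3-kinase complex was even between the groups. All 4 genes overlapped between groups, and all 4 intervals of the fold change lay within 1.5-fold either way. Pik3r4 had 555 and 582 CPM in control oocytes and 566 and 617 CPM in knockdown oocytes, and the 95% interval of its log2 fold change ran from -0.10 to 0.21. Pik3c3, the catalytic subunit VPS34, had 89.7 and 65.3 CPM in the controls, against 70.8 and 82.5 CPM in the knockdowns. Its knockdown values lay between the controls. Becn1, the Beclin 1 subunit that binds regulators of the complex, had 61.1 and 64.4 CPM in the control libraries and 60.3 and 61.8 CPM after knockdown, with a log2 fold change of -0.04 (95% interval -0.37 to 0.29). Atg14, the subunit that directs the complex to autophagosome formation, had 182 and 165 CPM in control oocytes and 164 and 175 CPM in knockdown oocytes.

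Becn1 shares 43.9% of its exonic bases with Cntd1 on the other strand. Cntd1 itself had between 0 and 52 counts in a library. Whether the counting used strand, and what it did with reads in shared bases, was not given in the sources used here, which leaves the level of Becn1 per length uncertain.

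Of the 7 genes for lipid supply and lipid binding, none passed the test. The groups did not overlap for 2 of them, Atg9a and Wipi1, a share of 28.6% that is below the 34.9% of all tested genes, and both were lower in the knockdowns. Atg9a, the membrane protein whose vesicles seed the autophagosome, had 49.9 and 51.9 CPM in the controls, against 34.9 and 48.0 CPM in the knockdowns. The lower value came from knockdown replicate 1, and the log2 fold change of -0.31 (SE 0.20) had an adjusted p of 0.853 by edgeR. Atg9a shares 32.6% of its exonic bases with other genes, nearly all with Gm29253 on the same strand, which had at most 1 count in a library. Wipi1, a reader of the PI3-kinase lipid, had 11.7 and 11.7 CPM in the control libraries and 6.95 and 7.76 CPM after knockdown. The replicates of Wipi1 were close in both groups, with a knockdown mean 0.627 times the control mean, yet its log2 fold change of -0.68 had a 95% interval from -1.53 to 0.17 and an adjusted p of 0.841 by edgeR.

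Wipi2, the relative of Wipi1 that recruits ATG16L1, was more abundant per length, with 57.2 and 65.6 CPM in control oocytes and 62.6 and 68.3 CPM in knockdown oocytes. Atg2a, a lipid transfer protein, had 98.0 and 132 CPM in the controls, against 101 and 87.1 CPM in the knockdowns. Its paralog Atg2b had 45.8 and 31.2 CPM in the control libraries and 32.6 and 40.5 CPM after knockdown. In both Atg2 genes the groups overlapped. Atg9b, the paralog of Atg9a, had 0 and 95 counts in control libraries, compared with 16 and 93 in the knockdowns. Each group thus held a low and a high library. Atg9b shares 7.45% of its exonic bases with Nos3 on the other strand, which was counted between 38 and 137 times. Wdr45, which encodes the WIPI protein WIPI4, had 173 and 13 counts in control libraries, compared with 176 and 104 in the knockdowns. Here control replicate 2 stood apart from the other 3 libraries.

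The conjugation enzymes and their substrates included Atg5, the most abundant member per length, and of these 7 genes it alone was listed at an unadjusted p under 0.05. Atg5 had 432 and 447 CPM in control oocytes and 511 and 475 CPM in knockdown oocytes. Both knockdowns were higher, by 1.12-fold (95% interval 1.005 to 1.253, edgeR adjusted p 0.835). Atg12, the ubiquitin-like protein joined to ATG5, had 219 and 201 CPM in the controls, against 220 and 227 CPM in the knockdowns. Atg16l1, which binds the ATG12-ATG5 conjugate and places it on the membrane, had 346 and 365 CPM in the control libraries and 348 and 356 CPM after knockdown, with a 95% interval of the log2 fold change from -0.18 to 0.15.

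The enzymes that activate and transfer these proteins were rarer per length than Atg5, Atg12 and Atg16l1. Atg7, the activating enzyme of both systems, had 23.6 and 33.6 CPM in control oocytes and 23.7 and 23.0 CPM in knockdown oocytes. Atg3, which transfers ATG8 proteins to lipid, had 33.5 and 45.8 CPM in the controls, against 30.7 and 36.0 CPM in the knockdowns. Both genes overlapped between groups, with control replicate 2 the highest library in each. Atg10, which transfers ATG12 to ATG5, had 8.36 and 5.15 CPM in the control libraries and 4.32 and 3.94 CPM after knockdown. Its groups did not overlap, but the 95% interval of its log2 fold change ran from -1.88 to 0.44. Atg16l2, a paralog of Atg16l1, was almost absent, with 0 and 28 counts in control libraries, compared with 16 in each knockdown.

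**Figure D2:**
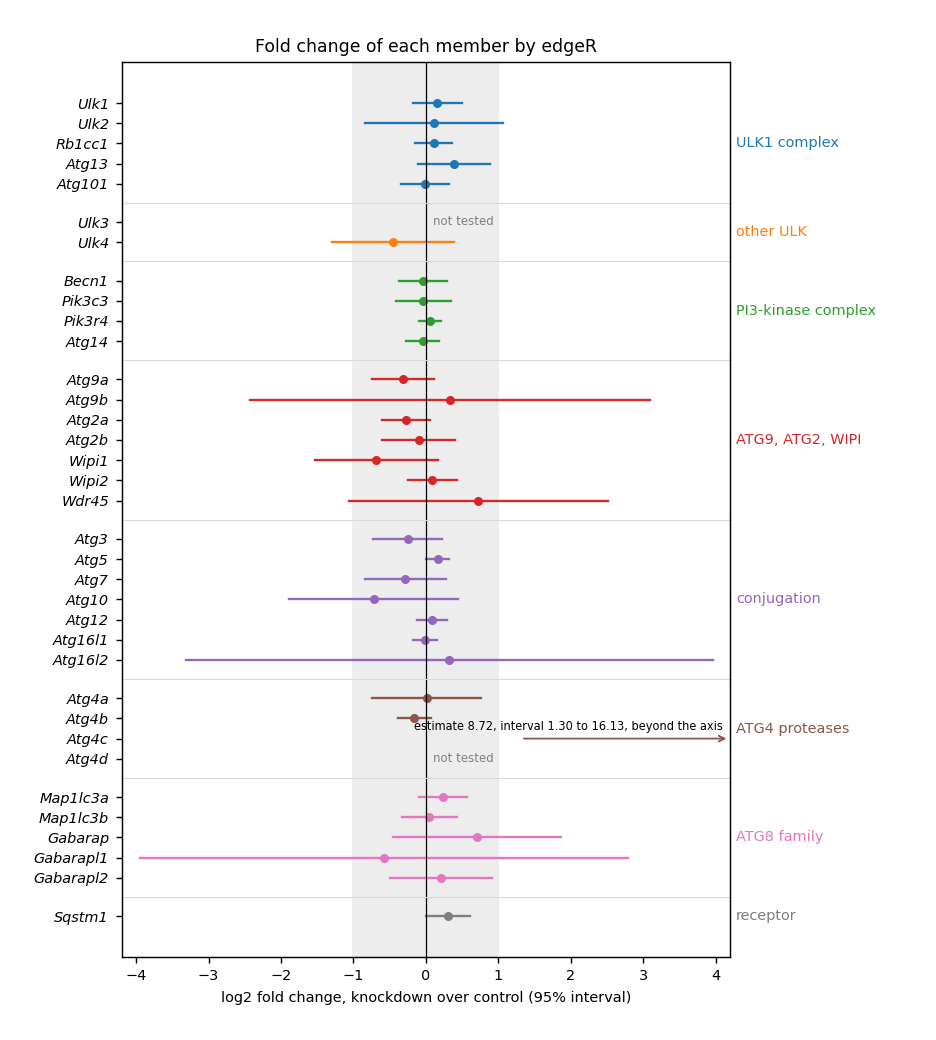
Log2 fold change of each gene, knockdown over control, by edgeR, with its 95% interval as a line, coloured by role. The grey band is a 2-fold change either way, and Atg4c, with 0 counts in both controls, runs off the axis. The intervals of 23 of the 33 tested genes lie inside the band, and those of Atg9b, Atg16l2 and Gabarapl1 are the widest of the genes drawn in full.

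Atg4c was the 1 tested member with counts in the knockdowns alone. ATG4 proteases trim new ATG8 proteins before lipid attachment and remove them from membranes afterwards. Atg4c had 0 counts in both controls and 57 and 43 counts, or 1.34 and 1.20 CPM, in the knockdowns. With the controls set at 3 counts per library, the knockdown mean was 18.2-fold higher, which allows for counting error only. By edgeR, Atg4c had a 95% interval of the fold change from 2.47 to 71660. It had an adjusted p of 0.835 by edgeR, 0.886 by limma-voom and 0.0236 by DESeq2, and over all settings tried the adjusted p ran from 0.0236 to 0.994. It passed the filter on low counts through the knockdowns alone. No exonic base of Atg4c is shared with another annotated gene, and 2.01% of the 50-nucleotide stretches of its transcripts occur in transcripts of other genes, most often of Lpl, which was counted between 1667 and 2505 times.

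Within the ATG4 family Atg4c was a minor transcript. Atg4b, the protease with the broadest activity on ATG8 proteins, had 177 and 160 CPM in control oocytes and 156 and 147 CPM in knockdown oocytes. Both knockdowns were below both controls, with a log2 fold change of -0.16 (95% interval -0.39 to 0.07). Per summed exon length, Atg4b made up 81.2% ± 0.559 (SD, n = 2) of the family in the controls and 77.8% ± 3.86 (SD, n = 2) in the knockdowns, and Atg4c 1.71% and 1.51% in the 2 knockdowns. Atg4a had 13.6 and 11.7 CPM in the controls, against 11.0 and 14.8 CPM in the knockdowns. Its counts are uncertain, because 51.2% of its 50-nucleotide stretches also occur in the pseudogene Atg4a-ps, which was counted 2 and 2 times in the controls, against 14 and 0 times in the knockdowns. Atg4d had 1 count in a single knockdown library and was not tested.

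The ATG8 family was led by Map1lc3a, and 4 of its 5 log2 fold changes were above 0, none of them past the test. That count was 3 without control replicate 1, without knockdown replicate 1 or without knockdown replicate 2, and 5 without control replicate 2. Of all 15868 tested genes, 8004 had a log2 fold change above 0. Summed over the family, the level was 128 and 133 CPM in the control libraries and 149 and 150 CPM after knockdown. Map1lc3a had 58.0 and 59.9 CPM in control oocytes and 67.9 and 71.2 CPM in knockdown oocytes. Its groups did not overlap, and its log2 fold change was 0.24 (95% interval -0.09 to 0.56, adjusted p 0.861 by edgeR). Map1lc3b, the LC3 gene most used as a marker of autophagosomes, had 46.3 and 54.6 CPM in the controls, against 49.4 and 55.0 CPM in the knockdowns. Gabarapl2, also known as GATE-16, had 12.4 and 15.6 CPM in the control libraries and 18.3 and 13.6 CPM after knockdown.

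Of the 5 ATG8 genes, Gabarap and Gabarapl1 varied most between the 2 controls. Gabarap had 501 and 94 counts in control libraries, compared with 544 and 340 in the knockdowns, and control replicate 2 was again the low library. Its log2 fold change was 0.71 with all libraries, 2.30 without control replicate 1 and 0.01 without control replicate 2, with an adjusted p of 0.895, 0.836 and 0.995 by edgeR. Gabarapl1, which shares 28.3% of its exonic bases with 1700101I11Rik on the other strand, had 2 and 44 counts in control libraries, compared with 14 in each knockdown.

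The share of each gene within the ATG8 family depended on the length used. Per summed exon length Map1lc3a made up 75.0% ± 1.82 of the family in the controls and 74.6% ± 2.65 in the knockdowns (SD, n = 2), and Map1lc3b 10.1% ± 1.19 and 8.80% ± 0.685. The summed exons of Map1lc3b cover 7517 nucleotides, whereas its longest annotated protein-coding transcript has 2633. With the latter kind of length for every gene, a setting added after seeing the data, Map1lc3a made up 61.8% and 62.3%, and Map1lc3b 22.3% and 19.8%. Under both lengths Map1lc3a came first in all 4 libraries.

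**Figure D3:**
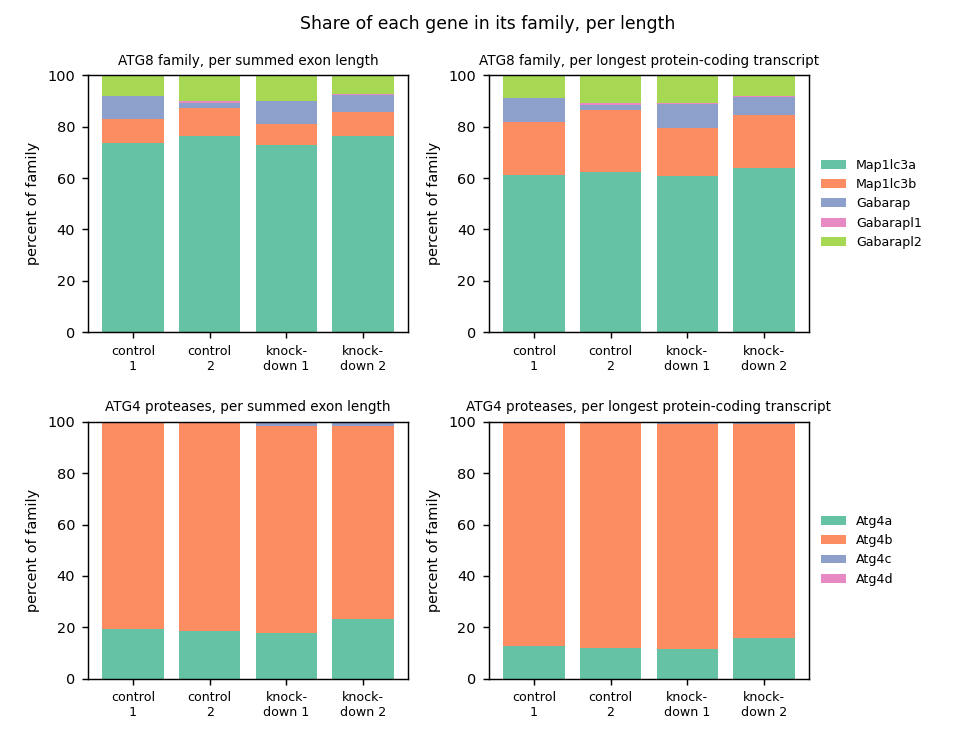
Share of each gene in the ATG8 family (top) and the ATG4 family (bottom) in each library, as a percent of the family sum of counts per length. The left panels divide by summed exon length and the right panels by the longest annotated protein-coding transcript. Map1lc3a and Atg4b take the largest part in every bar, and Gabarap is smallest in control replicate 2.

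Sqstm1 encodes p62, the receptor that ties ubiquitin-tagged cargo to ATG8 proteins and is itself degraded by autophagy. It had 65.5 and 70.6 CPM in control oocytes and 80.8 and 87.9 CPM in knockdown oocytes. Both knockdowns were above both controls, and the gap between the groups was larger than that within either. The fold change was 1.24 (95% interval 0.999 to 1.53), and its adjusted p was 0.835 by edgeR, 0.140 by DESeq2 and 0.886 by limma-voom. Sqstm1 shares 17.3% of its exonic bases with Mrnip on the other strand. Mrnip was counted between 1230 and 1612 times, so the counts of Sqstm1 are uncertain if strand was not used.

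The precision of a fold change went with the level of the gene. Of the 8 members with a mean over 100 CPM, all 8 had a 95% interval within 2-fold either way and 7 within 1.5-fold. Of all tested genes at that level, 2426 of 2427 lay within 2-fold and 97.8% within 1.5-fold. Between 10 and 100 CPM this was so for 15 of 16 members at 2-fold and 7 of 16 at 1.5-fold, where all tested genes of that level had 81.8% and 36.6%. None of the 9 tested members under 10 CPM had an interval within 2-fold. In all, 23 of the 33 tested members lay within 2-fold, where 46.7% of all tested genes did. That comparison does not allow for level. Only 8432 of the 15868 tested genes had at least 10 CPM, whereas just 9 of the 33 members lay below it. For the other 10, among them Wipi1, Atg10, Gabarap, Wdr45 and Atg4c, the 95% interval reached past 2-fold on at least 1 side.

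The spread between replicates followed the same order. Members between 10 and 100 CPM differed by a median of 1.18-fold between the 2 controls and 1.14-fold between the 2 knockdowns, and those over 100 CPM by 1.09-fold and 1.07-fold. These folds cover genes with counts in both libraries of a group. Between 1 and 10 CPM such members differed by up to 12.0-fold between the controls (Wdr45) and 6.91-fold between the knockdowns (Atg9b). Atg9b has no such fold in the controls, because control replicate 1 had 0 counts. Under 1 CPM, Gabarapl1 differed by 24.3-fold between the controls. Among the 30 members with counts in all 4 libraries, the fold between group means exceeded the larger fold between replicates for 7, Atg13, Wipi1, Atg5, Atg10, Atg4b, Map1lc3a and Sqstm1. That is 23.3%, where all tested genes with counts in every library had 22.3%.

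**Figure D4:**
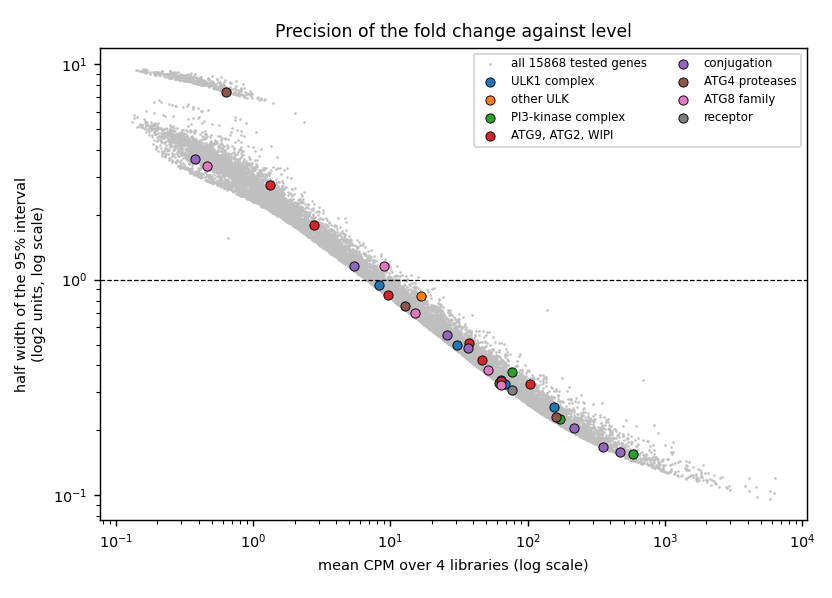
Distance from the estimate to the end of its 95% interval, in log2 units, against mean CPM, both on log axes. Grey points are all 15868 tested genes, coloured points the tested members by role, and the dashed line is 1 log2 unit. The members follow the band of all genes, and Atg4c lies in the upper branch of genes with 0 counts in both libraries of a group.

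The genes around this machinery also gave no call. The 4 lists of related genes held 89 symbols, of which 85 were tested, and edgeR, limma-voom and DESeq2 each called 0. At an unadjusted p under 0.05 edgeR listed 1 higher and 1 lower, or 2.35% where it listed 5.51% of all genes. limma-voom listed 2.35% where all genes had 4.71%, and DESeq2 6.98% where all genes had 10.2%. The edgeR count was 4 higher and 2 lower without control replicate 2, and 5 higher and 1 lower without knockdown replicate 1. It was 1 without control replicate 1, without knockdown replicate 2, with the replicate block and with the legacy fit. Selective autophagy receptors (19 tested) had 13 fold changes above 1 and 6 below, with a log2 median of 0.06, and 0.01 without control replicate 2. Their smallest p belonged to Retreg1, a receptor for the endoplasmic reticulum, with 0 and 18 counts in control libraries, compared with 92 and 63 in the knockdowns (adjusted p 0.835 by edgeR and 0.389 by DESeq2). Factors of autophagosome formation and fusion (26 tested) had a log2 median of 0.03, 14 above 0 and 12 below. That median was 0.19 without knockdown replicate 1 and -0.0003 without knockdown replicate 2. Vcp, an ATPase that extracts ubiquitin-tagged proteins, had the smallest p there, with 150.0 and 153 CPM in the controls, against 160 and 188 CPM in the knockdowns.

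Lysosome genes (22 tested of 25) had 14 fold changes above 1 and 8 below, with a log2 median of 0.08. Without control replicate 2 the median was -0.02, with 11 above 0 and 12 below, and without knockdown replicate 1 it was 0.14. Their smallest p belonged to Atp6v1h, a subunit of the proton pump, with 49.2 and 61.0 CPM in the control libraries and 75.2 and 62.4 CPM after knockdown. Ctsz and Lipa, for a lysosomal protease and lipase, had 0 counts in all 4 libraries and were chosen after their values were seen. Upstream kinases, nutrient sensors and transcription factors (18 tested of 19) had a log2 median of 0.02, 11 above 0 and 7 below, and -0.02 without knockdown replicate 2. Foxo3, a transcription factor that restrains follicle activation and promotes autophagy genes in other tissues, had 329 and 290 CPM in control oocytes and 261 and 265 CPM in knockdown oocytes. Both knockdowns were below both controls, with a log2 fold change of -0.24 (95% interval -0.44 to -0.04) and an adjusted p of 0.835 by edgeR.

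**Figure D5:**
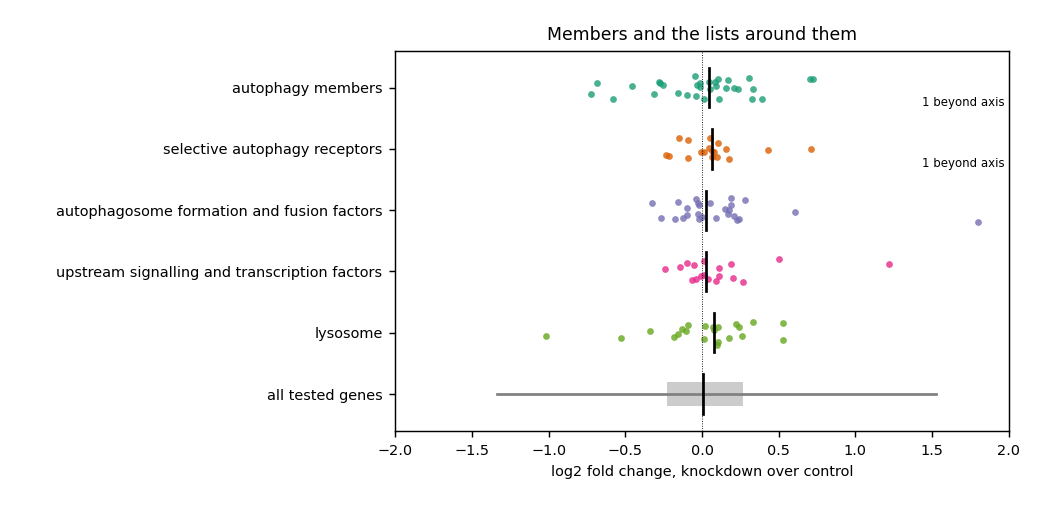
Log2 fold change of each tested gene of the autophagy members and of the 4 related lists, with the median as a black line. The bottom row gives all tested genes, with the middle 50% as a box and the 5th to 95th percentile as a line (-1.34 to 1.53), and values beyond 2 are given as a number. All 5 medians lie between 0.02 and 0.08.

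The factors TFEB, TFE3 and MITF are known to switch on autophagy and lysosome genes through E-box motifs with the letters CACGTG. They are named here because of that role, after their values were seen. Tfeb had 0 counts in all 4 libraries. Tfe3 had 201 and 197 CPM in the controls, against 194 and 202 CPM in the knockdowns, and Mitf 3.65 and 1.81 CPM in the control libraries and 8.62 and 3.91 CPM after knockdown, with an adjusted p of 0.835 by edgeR. The promoter table of RefSeq (GRCm38.p6) had an entry for 29 of the 35 members, each from 250 bases before to 50 after an annotated start. CACGTG reads the same on both strands. It occurred in that window of 4 members, Atg3, Atg5, Atg7 and Atg14, or 13.8%, beside 8.09% of all genes in the table. The windows of Atg7 and Atg14 lie inside the annotated gene, at a start downstream of its 5′ end. The Atg7 window begins at 114670846 in a plus-strand gene that begins at 114643097. The Atg14 window ends at 47568684 in a minus-strand gene that ends at 47570649. The longer TCACGTGA, which contains the first motif, occurred in 1 member, Atg3, and in 1.12% of all genes.

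The promoters of Atg3 and Atg5 are shown because these are, of the members with the motif, the one with 2 matches and the one most abundant in the oocyte. The Atg3 window is chr16:45158579-45158878 on the plus strand and the Atg5 window chr10:44268089-44268388 on the plus strand, printed 5′ to 3′ with the motif in capitals.
Atg3: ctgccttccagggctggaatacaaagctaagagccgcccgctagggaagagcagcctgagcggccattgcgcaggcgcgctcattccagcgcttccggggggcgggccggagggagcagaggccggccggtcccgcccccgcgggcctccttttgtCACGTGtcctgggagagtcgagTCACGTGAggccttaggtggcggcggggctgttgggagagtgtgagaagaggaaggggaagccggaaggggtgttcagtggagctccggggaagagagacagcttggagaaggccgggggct
Atg5: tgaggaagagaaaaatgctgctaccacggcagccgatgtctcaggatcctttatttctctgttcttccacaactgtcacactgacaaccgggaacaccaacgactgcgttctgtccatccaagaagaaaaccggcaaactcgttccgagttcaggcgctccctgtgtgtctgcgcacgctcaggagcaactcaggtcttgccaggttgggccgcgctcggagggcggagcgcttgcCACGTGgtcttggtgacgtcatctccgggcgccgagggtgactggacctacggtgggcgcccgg
The letters CACGTG begin 94 and 71 bases before the start of Atg3 and 14 bases before the start of Atg5. The longer TCACGTGA encloses the nearer match of Atg3 and begins 72 bases before the start. The log2 fold changes of the 4 genes with the motif were -0.25 for Atg3, 0.17 for Atg5, -0.28 for Atg7 and -0.04 for Atg14. They did not share a direction, and a match describes the letters in the window only.

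All 35 members have the same chromosome, start and end in the count table and in GENCODE release M21 on mm10. Atg5 lies on chromosome 10 from 44268358 to 44364291 on the plus strand, Atg4c on chromosome 4 from 99193934 to 99259787 on the plus strand, and Sqstm1 and Wipi1 on the minus strand of chromosome 11, from 50199366 to 50210827 and from 109573331 to 109611967. Map1lc3a lies on chromosome 2 from 155276297 to 155278073 on the plus strand. Of the 35 members, 22 share no exonic base with another annotated gene, and 6 share over 10% of them, namely Becn1, Atg9a, Gabarapl1, Wdr45, Atg4d and Sqstm1.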

How the data were processed

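Raw read counts per gene, as deposited by the authors, were used as they are. Per the file headers, the table gives each symbol with exon coordinates, strand and a summed exon length in nucleotides, as featureCounts writes them. The tools named in the submitters' processing notes, with no role, are featureCounts 2.0.0, STAR 2.7.5b, DESeq2 1.28.1 and Trim Galore 0.6.4, and the build is mm10. The use of strand and the treatment of reads with several alignments were not given in the sources used here.

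Groups and replicate numbers came from the sample titles. Genes kept by filterByExpr (a minimum count of 10 and a total of 15) numbered 15868. They were compared in R 4.3.3 with edgeR 4.0.16 (TMM, estimateDisp, glmQLFit robust with its current rather than legacy fit, glmQLFTest, two-sided, with no covariate besides group), adjusted by Benjamini-Hochberg at 0.05. The 95% interval used the SE from the F statistic. CPM used library totals, and RPKM divided CPM by the summed exon length. Values are for 2 libraries a group. Replicate counts differed by more than sampling noise (chi-square divided by its degrees of freedom 34.7 between controls, 30 between knockdowns), and each library was kept. Shared stretches of 50 nucleotides were counted on both strands of GENCODE M21 transcripts, and promoters came from RefSeq on GRCm38.p6.

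Alternatives were other scaling factors, filters, a replicate block, each library left out (the lone partner then takes its spread from the other group), DESeq2 1.42.0 (independent filtering set for an adjusted p of 0.05 rather than its default) and limma-voom (limma 3.58.1), and, added after seeing the data, edgeR's legacy fit and another gene length. The code was tested on simulated data. The members and gene lists were chosen with earlier results of these data known. The rule for named genes covered Parp12, every member, and in each related list the gene with the smallest p; other genes are named as chosen after their values were seen, or as markers or overlapping neighbours. The table had 0 columns of samples outside the series.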

Additional observations from a re-analysis of the deposited data

How the results depend on the processing

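Under 12 alternatives, 392 of 393 values of single members stayed on the same side of the threshold. The exception was Atg4c, which DESeq2 called at a log2 fold change of 8.21 (adjusted p 0.0236), so the count of members called higher was 1 there and 0 elsewhere, and 0 were called lower in any setting. The sign of the fold change was the same in all settings for 17 of 33 tested members and differed in at least 1 for 16, none of them called. The median log2 fold change of the members lay between -0.0572 and 0.0955 when a library was left out, and was -0.0572 without knockdown replicate 2. The cause was not tested. Genes called over the whole table numbered 1, but 8 with a filter of 1 CPM in both libraries of a group, 305 with DESeq2, 0 with limma-voom, and between 1 and 2 when a library was left out (2 without knockdown replicate 1). Parp12 kept its direction in all of them, and lost its call with limma-voom (log2 fold change -7.73, adjusted p 0.280). With the longest protein-coding transcript as the length, the control share of Map1lc3a in its family moved from 75.0% to 61.8% and that of Atg4b from 81.2% to 87.6%. With the replicate number as a block, 0 members were called, 1 gene was called in all, and the median was 0.05. Deviations of same-numbered libraries correlated at 0.00103 over all tested genes, and the block changed no call. With 1 difference per group, this cannot show whether the libraries were collected or handled in pairs, which the labels do not say. At this depth a count of 0 allows a level of up to 0.0663 to 0.0838 CPM, taking 3 counts as the limit.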
